A study of Mus musculus with 3 samples.

Results

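Kmt2b mRNA (ENSMUSG00000006307) carried many called 5-methylcytosine (m5C) sites in mouse oocytes and few in the 1-cell embryo, and every site listed under this gene name is described here. The gene was chosen by its numbers of called sites in the oocyte and embryo lists, 19 for the GV oocyte, 28 for the MII oocyte and 2 for the 1-cell embryo, so the numbers are given as a description with no test. Together they make 30 distinct sites, out of 40298 distinct sites in all genes and stages.

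The study measured m5C in mRNA by bisulfite sequencing, which makes unmethylated C appear as T and leaves m5C as C, and the level of a site is its percentage of unconverted reads. There was 1 library per stage, so no value has a replicate check. All animals were wild-type C57BL/6J, and the females were 7 to 8 weeks old. Ages and hormone doses are given as in the labels, from which the methods of the study differ in part. The GV oocytes, fully grown oocytes held before meiotic resumption, came from females given 10 IU of PMSG, a gonadotrophin that stimulates follicle growth, and were collected 48 h later. The MII oocytes, arrested in the second meiotic metaphase and ready for fertilization, came from females given 10 IU of PMSG and then, after 44 to 48 h, 5 IU of hCG, the hormone that triggers ovulation, with collection 12 h after hCG. The 1-cell embryos came from females given 5 IU of PMSG and 5 IU of hCG at the same spacing, mated with C57BL/6J males and collected 24 h after hCG. About 200 embryos were pooled for the library, as the series design states it, and the labels describe the conversion of the embryo RNA differently from that of the oocyte RNA. Library preparation, hormone dose and stage therefore cannot be told apart.

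Kmt2b encodes a histone methyltransferase of the MLL family, which places methyl groups on lysine 4 of histone H3 (H3K4) together with the core subunits WDR5, RBBP5, ASH2L and DPY30 and with the scaffold protein menin. It is known to be needed in growing mouse oocytes for H3K4 methylation and for fertility. In mRNA, m5C is placed mainly by NSUN2, whose sites (Type I) are typically followed by G at the foot of a hairpin, and by NSUN6, whose sites (Type II) begin the motif CTCNA, in which T stands for the U of the RNA and N for any base.

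The gene lies on the minus strand of chromosome 7 at 30568858 to 30588726 (GRCm38), and the annotated principal transcript has 37 exons and 8454 nt. A 5′ UTR of 9 nt and a 3′ UTR of 306 nt flank a CDS of 8139 nt. All 30 sites were C on the minus strand, and all 30 lay in the CDS, spread over 15 of the 37 exons. The sequences below are those on which the results turn, read from the GRCm38 transcript in the 5′ to 3′ direction with 10 nt on each side of the site. Capitals mark the methylated C and the 4 bases after it.

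The first 3 are the highest levels of the MII oocyte list, in exons 26, 12 and 19.
chr7:30576714: gtgccgaattCTAGAgtatcg
chr7:30581984: cctccatgagCTGGTtttttg
chr7:30579517: acggagtacaCGGCTgccaaa
The next are a pair of neighbouring C in exon 5, the first of which had the largest rise between the oocyte libraries.
chr7:30584477: ccctccctctCCGGGatcggc
chr7:30584476: cctccctctcCGGGAtcggca
The site with the largest fall, in exon 3, is followed by the sites with the Type II motif, also in exon 3.
chr7:30586397: tagaaagaaaCAGGAgcagaa
chr7:30585949: ctttctcccaCTCCAaaccct
chr7:30585775: cctcccaaacCTCCAaaggtg
The 3 lowest levels of the MII oocyte list were at sites called in that library alone, in exons 30, 20 and 1.
chr7:30574031: ctgccacttgCAGAAgctcct
chr7:30578916: atcagagaccCCAGAatcggg
chr7:30588541: cgggaggagcCGAGCccgggg
The last pair are the sites of the 1-cell embryo list, in exons 15 and 16, and neither is in an oocyte list.
chr7:30580443: gtgagggactCTCAGatgaag
chr7:30580140: tcaggtgctcCAGGGcctgtt

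The sites ran from the first exon to exon 31. Exon 3, the longest of those described at 2036 nt, held 6 of the 30 sites, exon 1 held 5 in 372 nt, and exon 28 held 3. The median distance between neighbouring sites was 105 nt of mRNA, with a range of 1 to 959 nt, and the longest stretch without a site between others ran from exon 3 to exon 5. The last 1294 nt of the mRNA, which include the 3′ UTR, had no called site in any library. The stretch before the midpoint of the mRNA held 12 sites in the GV oocyte and 18 in the MII oocyte, and that after it, with nearly the same number of C (1278 against 1303), held 7 and 10. The median level ran the other way, at 21.3% before the midpoint and 38.8% after it in the GV oocyte, and at 19.5% and 25.2% in the MII oocyte. By codon position, 7, 6 and 6 of the GV oocyte sites fell on the codon bases in their order, and 13, 8 and 7 of the MII oocyte sites.

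**Figure D1:**
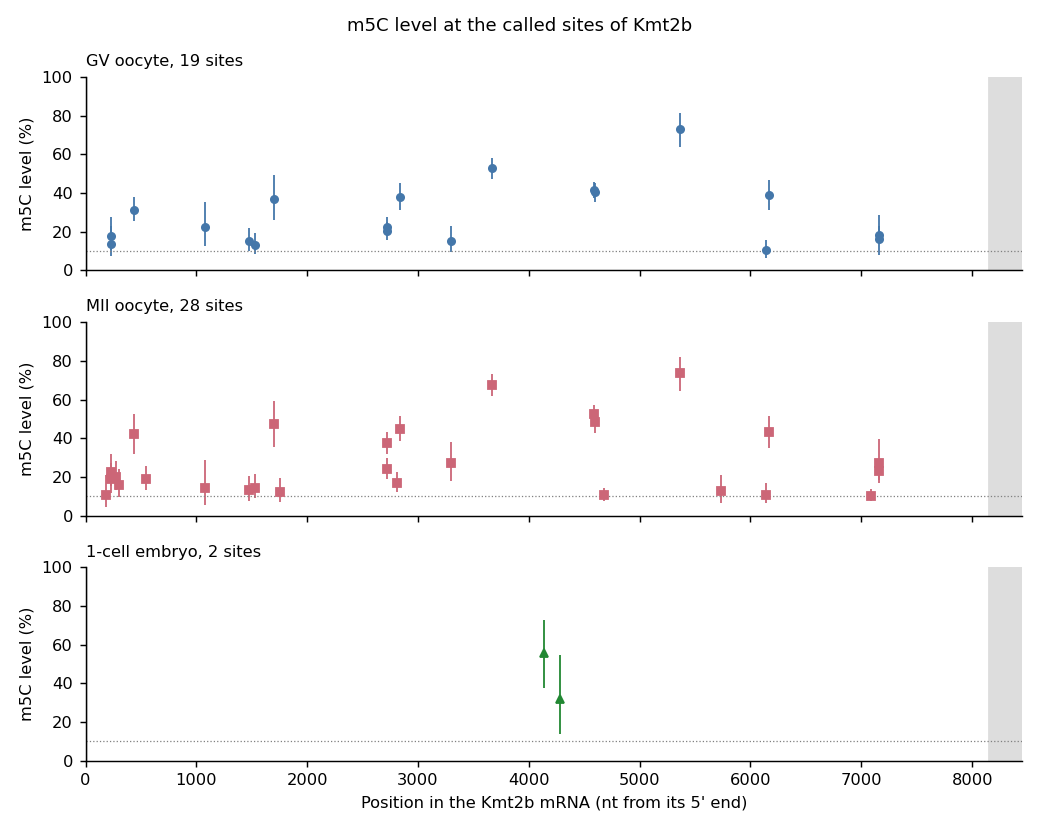
m5C level (percent of reads unconverted) at each called Kmt2b site against its position in the mRNA (nt from the 5′ end), 1 panel per library, with bars for the exact 95% binomial interval, a dotted line at the 10% limit of the lists and grey shading over the 3′ UTR. The 19 GV oocyte sites recur in the MII oocyte panel, and the 2 sites of the 1-cell embryo lie between oocyte sites.

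The reads at called sites of all genes summed to 4475058, 5285011 and 2616279 in the order GV oocyte, MII oocyte and embryo, with a median coverage per site of 121, 107 and 58 reads. The lists held 15910, 20694 and 24996 sites in 6108, 6736 and 6407 genes. No site in them had under 20 reads, a level under 10% or under 5 unconverted reads, and since only called sites are listed, a site missing from a list may be unmethylated, below those limits or not covered. Of 12 oocyte marker genes 7, 9 and 12 had a called site. These sites had 645 to 16549, 613 to 8947 and 34 to 3062 reads. Of 10 marker genes of cumulus and granulosa cells none, 2 (Amh and Cyp19a1, at sites of 49 to 96 reads) and none did. Of the 8353 genes with a site at any stage, 73.1%, 80.6% and 76.7% had one. A called site does not measure expression, so a gene without one may still have had RNA in the library. Whether RNA of cumulus and granulosa cells contributed to Kmt2b reads was not tested.

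In the GV oocyte the level at Kmt2b sites ranged from 10.7% to 73.4% with a median of 22.3%, and in the MII oocyte from 10.4% to 74.0% with a median of 21.4%. The medians over all called sites were 19.5% and 19.8%. Pooled over its sites, Kmt2b had 1209 unconverted of 3907 reads in the GV oocyte (30.9%) and 1525 of 5034 reads in the MII oocyte (30.3%). A level of at least 40% was reached at 4 of 19 sites in the GV oocyte and 8 of 28 in the MII oocyte, beside 17.0% and 17.9% of all called sites. The share of unconverted C behind the deposited p-values, which is the background of the gene, was 0.372%, 0.542% and 0.385% for the stages in developmental order, against medians over all genes of 0.264%, 0.367% and 0.354%. The upper quartiles over all genes were 0.384%, 0.536% and 0.534%, so the MII oocyte background of Kmt2b lay above its quartile. Every listed site passed the test of the authors against the background of its gene, so its distance from that background was set by the list.

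The highest level in both oocyte libraries was that of chr7:30576714 in exon 26. It was 73.4% of 109 reads in the GV oocyte (exact 95% interval 64.1% to 81.4%) and 74.0% of 100 reads in the MII oocyte (64.3% to 82.3%), and the intervals overlapped almost fully. These intervals, like all those given here, cover counting error only, and reads without molecular identifiers are not independent molecules. The next highest was chr7:30581984 in exon 12, at 52.8% of 360 reads in the GV oocyte (47.5% to 58.0%) and 67.7% of 279 reads in the MII oocyte (61.9% to 73.2%). The site chr7:30579517 in exon 19 came next in both libraries and had the highest coverage of all Kmt2b sites, at 41.6% of 519 reads (37.3% to 46.0%) and 52.8% of 464 reads (48.1% to 57.4%). At both of these sites the intervals of the oocyte libraries did not overlap.

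At the low end of the MII oocyte list, chr7:30574031 in exon 30 had a level of 10.4% of 386 reads (7.51% to 13.8%), chr7:30578916 in exon 20 had 10.6% of 341 reads (7.50% to 14.3%) and chr7:30588541 in exon 1 had 10.8% of 65 reads (4.44% to 20.9%). All 3 sat just over the 10% limit, with intervals that include it, and none was in the GV oocyte list. They belong to 9 sites called in the MII oocyte alone, whose levels ran from 10.4% to 20.0% with a median of 12.6% at 65 to 386 reads. Of these 9, 8 were under 20%. All 19 sites of the GV oocyte were called in the MII oocyte as well, so the larger number in the MII oocyte was made up of sites at or under 20.0%.

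The sites of the 1-cell embryo were in neither oocyte list, and no Kmt2b site was called at every stage. The site chr7:30580443 had a level of 55.9% of 34 reads (37.9% to 72.8%) and chr7:30580140 had 31.8% of 22 reads (13.9% to 54.9%). They lay 139 nt apart in the mRNA, in a stretch without oocyte sites, 470 nt downstream of the nearest MII oocyte site on one side and 309 nt upstream of the nearest on the other. Their coverage was close to the minimum of 20 reads and below that of every Kmt2b site in the oocyte lists, the lowest of which were 55 reads in the GV oocyte and 42 in the MII oocyte. Coverage at the 28 MII oocyte sites in the 1-cell embryo is not part of the list, so the level of these sites after fertilization cannot be given. In bulk libraries fewer cells and less RNA per cell cannot be told apart, and the part of lower coverage in the fall from 28 to 2 sites was not tested.

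**Figure D2:**
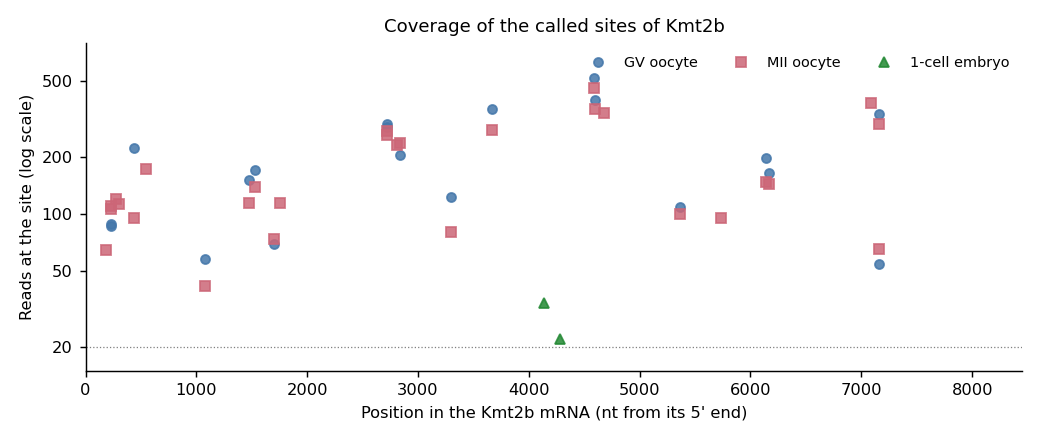
Reads at each called Kmt2b site (log scale) against its position in the mRNA (nt from the 5′ end), with 1 symbol per library and a dotted line at the minimum of 20 reads. The oocyte sites lie between 42 and 519 reads and both sites of the 1-cell embryo, at 34 and 22 reads, lie below them.

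Other genes had many oocyte sites and few in the embryo list as well. These numbers include those by which Kmt2b was chosen and are a description. Of 45 genes with at least 15 sites in the MII oocyte, 7 had at most 2 in the 1-cell embryo, Kmt2b included, and the median over the 45 genes was 12. The genes whose numbers of sites were nearest to those of Kmt2b over the 3 libraries, by the distance between log2 values of the number of sites plus 1, were Wdfy3 (19, 24 and 4 sites in developmental order, distance 0.77), Hectd4 (15, 18 and 3, distance 0.81), Kalrn (13, 21 and 1, distance 0.88), Shank2 (14, 16 and 2, distance 0.88) and Dock6 (13, 17 and 1, distance 1.04). Median coverage in the 1-cell embryo was 41, 55, 23, 32 and 21 reads in these genes in that order, beside 28 reads in Kmt2b. Per 1000 C of the transcript, Kmt2b had 7.36, 10.8 and 0.775 sites in developmental order, and the median genes with at least 500 C had 1.965, 2.45 and 3.25.

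The change in level between the oocyte libraries was not used to choose the gene, and was tested at every site called in both lists with a two-sided Fisher's exact test on the unconverted and converted reads, with Benjamini-Hochberg adjustment over all 12954 such sites. The test compares these libraries, not the stages. Of the 19 Kmt2b sites, 3 were called higher in the MII oocyte at an adjusted p under 0.05 and 0 were called lower, while over all shared sites 19.6% were called higher and 0.965% lower. The share of Kmt2b is close to this background and is not a result about the gene. Before adjustment 5 of the 19 sites had a p under 0.05, all of them higher in the MII oocyte, beside 29% of all shared sites that were higher and 1.81% that were lower at this limit.

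The largest rise was at chr7:30584477, from 20.3% of 300 reads in the GV oocyte (15.9% to 25.3%) to 37.5% of 275 reads in the MII oocyte (31.7% to 43.5%), a difference of 17.1 points (SE 3.73, Fisher's exact test, adjusted p = 0.00011). The C directly after it, chr7:30584476, went from 22.3% of 287 reads to 24.1% of 261 reads, a difference of 1.84 points (SE 3.61, Fisher's exact test, adjusted p = 0.822). Neighbouring C read by largely the same reads thus had nearly equal levels in the GV oocyte, and 1 of the pair passed the test. The difference between their rises was not tested.

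The other calls were at chr7:30581984, where the level was 14.96 points higher in the MII oocyte (SE 3.84, Fisher's exact test, adjusted p = 0.00161), and at chr7:30579517, where it was 11.2 points higher (SE 3.17, Fisher's exact test, adjusted p = 0.00502). The 3 called sites were among the most deeply covered of the gene. The largest fall was at chr7:30586397, the least covered of the shared sites in the MII oocyte, from 22.4% of 58 reads (12.5% to 35.3%) to 14.3% of 42 reads (5.43% to 28.5%). It changed by -8.13 points (SE 7.69) and did not pass (Fisher's exact test, adjusted p = 0.681).

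Of the 19 shared Kmt2b sites 17 had a higher level in the MII oocyte and 2 a lower one, and the median difference was 6.72 points. Over all shared sites 77.0% were higher in the MII oocyte, with a median difference of 4.87 points, and of 654 genes with at least 5 shared sites 68.3% had a lower median difference than Kmt2b. The median level of the shared sites was 22.3% in the GV oocyte and 27.3% in the MII oocyte. Pooled over them, the level was 30.9% and 38.4%, a difference of 7.42 points (Fisher's exact test, 1 per gene, adjusted p = 6.6e-10), where 32.3% of 5387 genes were called higher and 1.67% lower. Neighbouring sites share reads, so pooled reads are not independent. Levels in the oocyte libraries followed each other over the 19 sites (Pearson's r 0.940, Spearman's rho 0.882), which all come from 1 transcript and 1 library per stage.

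**Figure D3:**
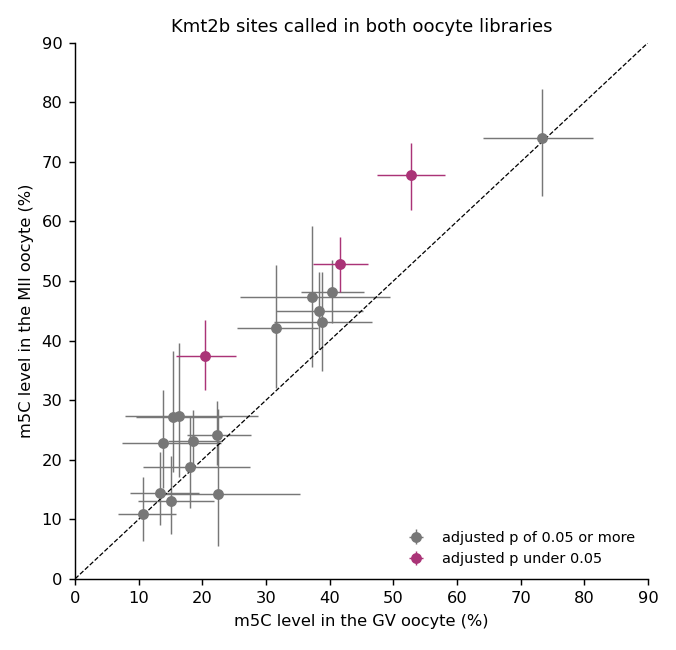
m5C level (percent) in the MII oocyte against the GV oocyte at the 19 shared Kmt2b sites, with exact 95% binomial intervals and a dashed line of equal levels. The 3 coloured sites passed the test at adjusted p under 0.05, and 17 of 19 sites lie above the line.

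Coverage of the shared Kmt2b sites was lower in the MII oocyte at 14 of 19 sites. The ratio of MII to GV oocyte reads had a median of 0.894 (range 0.428 to 1.26), and the median over all shared sites was 0.867. These read numbers are not scaled for library depth. Of the genes with at least 5 shared sites 59.5% had a lower ratio than Kmt2b, which puts it near the middle of them.

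Kmt2b sites were followed by more G than other C of its mRNA. The mean number of G among the 4 bases after the site was 2.11 (GV oocyte), 2.21 (MII oocyte) and 2 (1-cell embryo), beside 0.960 over all 2581 C of the transcript. Called sites of all genes had 2.10, 2.10 and 1.91, so in this respect Kmt2b was like the rest. The second base after the site was G at 13 of 19 sites in the GV oocyte and 19 of 28 in the MII oocyte, and the third base at 12 and 19. Sites chr7:30584477 and chr7:30584476, which are followed by CGGG and GGGA, are examples of the G-rich kind, while chr7:30576714, the highest of all, is followed by TAGA.

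The share of C called as m5C was higher the more G followed. In the GV oocyte it was 0.207% of 966 C with 0 G, 0.318% of 943 with 1, 1.20% of 501 with 2, 4.67% of 150 with 3 and 4.76% of 21 with 4. In the MII oocyte it was 0.207%, 0.530%, 1.80%, 6.00% and 14.3% in the same order, of which the last is 3 of 21 C. Over the genes of each list the share was 0.0532%, 0.102%, 0.539%, 1.85% and 4.85% in the GV oocyte and 0.0567%, 0.128%, 0.655%, 2.19% and 5.59% in the MII oocyte. Kmt2b lay above these shares at every number of G in the MII oocyte and at every number but 4 in the GV oocyte, and since it was chosen for many oocyte sites, nothing is read from that. The number of G did not order the sites by level (Spearman's rho -0.02 over 19 sites in the GV oocyte and 0.13 over 28 in the MII oocyte).

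**Figure D4:**
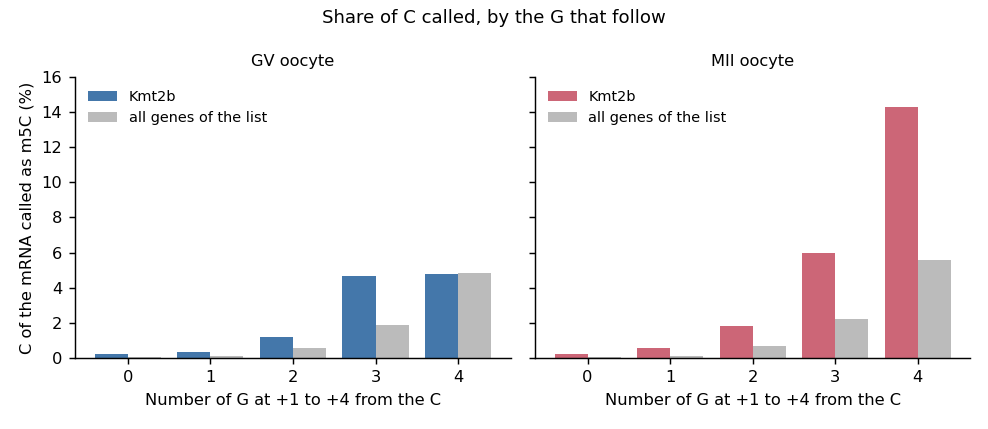
Share of C in the mRNA called as m5C (percent) by the number of G at the 4 bases after it, for Kmt2b and for all genes of the list, in the GV oocyte and the MII oocyte. The Kmt2b share rises from 0.207% with 0 G to 4.76% and 14.3% with 4 G.

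The sites with the Type II motif were both called in both oocyte libraries. At chr7:30585949 the level was 13.4% of 172 reads (8.67% to 19.4%) in the GV oocyte and 14.4% of 139 reads (9.02% to 21.3%) in the MII oocyte. At chr7:30585775, further down the same exon, it was 37.1% of 70 reads (25.9% to 49.5%) and 47.3% of 74 reads (35.6% to 59.2%). The intervals of the sites did not overlap in either library, although both read CTCCA. Type II sites made up 5.90% of all placed sites in the GV oocyte list and 5.02% in the MII oocyte list.

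The bases after Kmt2b sites had a higher predicted share of pairing than those after all C of the mRNA, a difference that was not tested. In windows of 50 nt on each side folded at 37 °C, 69.7% of the 4 bases after the site were paired in the GV oocyte list and 71.4% in the MII oocyte list, beside 52.6% for all C of the transcript and 70.7% and 70.4% for all called sites. Exact 95% binomial intervals that take each site as 1 trial were 43.4% to 87.4% and 51.3% to 86.8%, and both include the value for all C of the transcript. A site gives a share of 4 bases and not 1 outcome, so these are not intervals of the mean share and decide nothing about the difference. The 4 bases before the site were paired at 44.7% and 43.8%, beside 53.9% for all C of the transcript and 50.1% for all called sites in both lists. With 30 nt on each side these shares were 48.7% and 47.3%, beside 48.9% for all C, so that the difference before the site was nearly gone. The median folding energy of the windows was -33.8 and -33.5 kcal/mol, beside -28.9 kcal/mol for all C. The windows of the 5 sites of exon 1 had energies of -45.2 to -57.7 kcal/mol, and 1.53% to 5.88% of the windows around the C of the mRNA were more stable than these. The window of the embryo site chr7:30580140 had -46.4 kcal/mol. With 50 nt on each side, all 4 bases after the site opened pairs with later bases at 3 of 19 GV oocyte sites (15.8%). In the MII oocyte list this held for 3 of 28 sites (10.7%). It held for 28.5% and 27.4% of all called sites and for 8.86% of all C of the transcript, and the difference was not tested. Such folds are computed from the sequence and were not measured.

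Kmt2b had 3 sites at the first base of an exon, of the 9 exons after the first that begin with C, and all 3 were called in both oocyte libraries. These were chr7:30581984 in exon 12, given above, chr7:30578995 in exon 20 at 40.4% of 399 reads in the GV oocyte and 48.2% of 359 reads in the MII oocyte, and chr7:30570841 in exon 31 at 16.4% of 55 reads and 27.3% of 66 reads. Such sites were rare, with 17 in 15 genes in the GV oocyte list and 20 in 18 genes in the MII oocyte list, and no other gene had more than 1. Over all genes 0.138% and 0.154% of C at the first base of an exon were called, beside 0.256% and 0.305% of other C. The 1-cell embryo list held 44 such sites, none of them in Kmt2b.

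Most genes of a list for H3K4 methylation, which holds Kmt2b, other methyltransferases, subunits of their complexes and demethylases, had called sites at each stage. Of its 32 genes, 21, 22 and 23 had a site at the GV oocyte, MII oocyte and embryo stage, with 93, 144 and 136 sites in all, and 9 had none at any stage. The number of sites was higher in the MII than in the GV oocyte for 17 genes and lower for 0. The embryo list had more sites than the MII oocyte list for 12 genes and fewer for 10. Of the 23 genes of the list with a site at any stage, these are 73.9% and 0% between the oocyte lists and 52.2% and 43.5% between the MII oocyte and embryo lists. Over all 8353 genes with a site at any stage, the number was higher in the MII than in the GV oocyte for 43.9% and lower for 13.7%, and the embryo list had more sites than the MII oocyte list for 48.4% and fewer for 34.3%. Of all these genes 73.1%, 80.6% and 76.7% had a site in the lists in developmental order. On the same basis the shares were 91.3%, 95.7% and 100% of the 23 genes of the H3K4 list. The list was not tested against other genes, and a gene with more sites has more room for its number to differ. These numbers are a description with no test, and Kmt2b itself is among the 32 genes.

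Among the other MLL and SET1 enzymes, Kmt2d, an enzyme of enhancer H3K4 methylation, had 15, 25 and 20 sites in developmental order, and its relative Kmt2c had 10, 12 and 15. Kmt2d, with nearly as many sites as Kmt2b in the MII oocyte, thus had 20 where Kmt2b had 2. The median coverage of Kmt2d sites was 286, 245 and 47 reads and that of Kmt2c sites 212, 169 and 61 reads, beside 172, 129.5 and 28 reads for Kmt2b. Setd1a had 4, 6 and 2 sites and Setd1b 5, 9 and 6, both of which encode enzymes of H3K4 trimethylation. Kmt2a, the closest relative of Kmt2b, had no site in any list.

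The subunits shared by these enzymes had more sites in the embryo list than in the oocyte lists, beside 48.4% of all genes with more than in the MII oocyte. Wdr5 had 5, 6 and 11 sites, Ash2l 3, 3 and 5, Rbbp5 1, 1 and 2, and Dpy30 0, 0 and 1, at 29 reads. Median levels were lower in the embryo than in the MII oocyte list, at 22.1% against 43.2% for Wdr5 and 21.7% against 47.0% for Rbbp5. For Ash2l they were 17.5% against 19.1%, and these medians are taken over differing sets of sites. The value of Rbbp5 in the MII oocyte list is that of 1 site. Over all called sites the median went the other way, at 23.8% in the embryo against 19.8% in the MII oocyte. Men1, which encodes menin, a subunit particular to the complexes of Kmt2a and Kmt2b, had 3, 4 and 1 sites, with median coverages of 59, 81 and 32 reads. Paxip1, a subunit of the Kmt2c and Kmt2d complexes, had 5, 7 and 6 sites, and Bod1l, of the SET1 complexes, had 1, 6 and 1. Subunits of particular complexes did not all go this way. Cxxc1 had 2, 3 and 7 sites, Wdr82 1, 2 and 7, Ncoa6 4, 5 and 6, and Psip1 1, 3 and 3. Hcfc1 had 3, 7 and 6 and Kdm6a 1, 5 and 4. Of the demethylases that remove these marks, Kdm5c had 4, 4 and 14 sites, and Kdm1b, known for its role in growing oocytes, had 0, 1 and 7. The same number of sites stands for different stretches of mRNA in these genes, so numbers are compared here between libraries and not between genes by density.

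**Figure D5:**
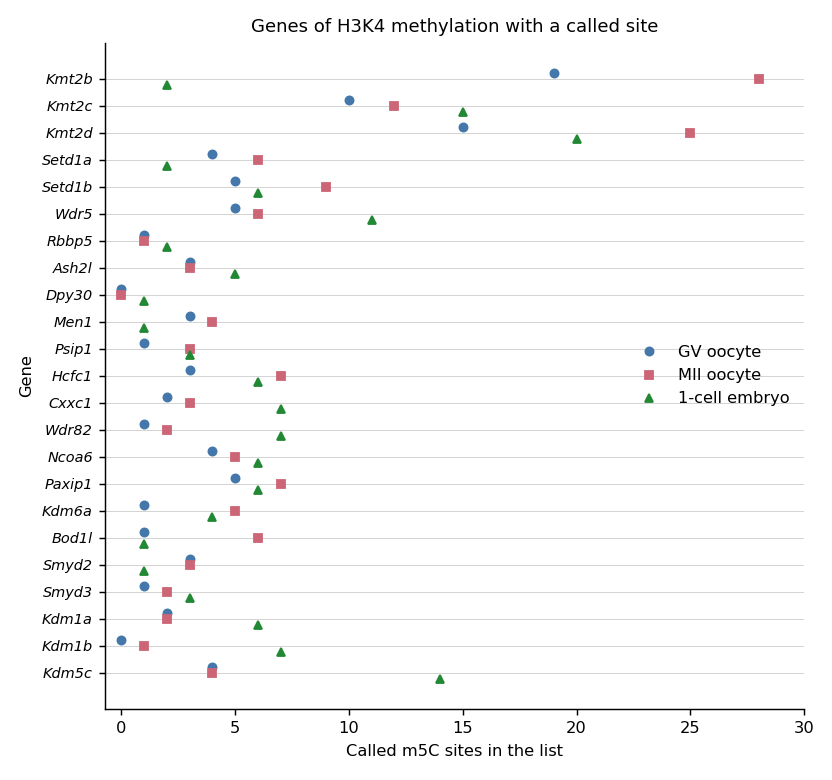
Number of called m5C sites per gene (horizontal axis) for the genes of H3K4 methylation with a site in any list (vertical axis), 1 symbol per library. Kmt2b has the most sites in both oocyte libraries, with 19 and 28, and 2 in the 1-cell embryo, while Kmt2d has 20 and Kmt2c 15 there.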

How the data were processed

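RNA bisulfite libraries of GV oocytes, MII oocytes and 1-cell embryos were analysed, 1 library each. As the methods of the study give it, the authors trimmed reads with cutadapt and Trimmomatic, aligned them with HISAT2 and Bowtie2 to GRCm38 with Ensembl release 87, and called sites with filters on coverage, level, unconverted reads and conversion-resistant genes. The labels give the RNA as polyadenylated, whereas the methods name ribosomal RNA depletion and a higher hCG dose for MII oocytes than the labels do. The methods also give a wider age range for the females of the oocytes. They describe ovulation for the 1-cell embryos as induced in the way used for the oocytes, and so without the lower PMSG dose of the labels. The processing notes of the submitters name cutadapt 1.13, Trimmomatic 0.36, HISAT2 2.10 and Bowtie2 2.2.9, while the reporting summary of the study gives another version of cutadapt and writes that of HISAT2 differently. The site list deposited for the 1-cell embryo differs from the one in the supplement of the study, so its values describe the deposited library alone. For coverage the authors deposited the unnormalized count of reads at a site. For the level they deposited the fraction of those reads left unconverted, which is printed here as a percent. The deposited p-value, from the authors' binomial test with the background rate of each gene, served to recover that rate. The step was tested on simulated p-values made with the same formula, which checks the arithmetic and not the origin of the deposited values. At 17 Kmt2b sites of the GV oocyte the recovered rate ran from 0.372197% to 0.372284%. At 26 sites of the MII oocyte it ran from 0.541591% to 0.541948%.

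Unconverted reads were the level times the coverage, whole to within 2.9e-05 reads. Sites were placed on GENCODE M21 transcripts of GRCm38, in which 8345 of 8353 gene identifiers were found. Of the 8 annotated Kmt2b transcripts the principal one was used. Levels have exact Clopper-Pearson intervals at 95%. Shared sites of the oocyte libraries were compared by Fisher's exact test with Benjamini-Hochberg adjustment. Windows were folded with RNAfold of ViennaRNA 2.7.2. Values were computed in Python 3.11.15 with scipy 1.17.1, pandas 2.3.3, numpy 2.4.6, matplotlib 3.10.9 and pysam 0.24.0. The gene, gene lists and tests were chosen with earlier results of these data known. Genes named were Kmt2b, those of the H3K4 methylation list and the 5 nearest by numbers of sites. Sites named were the 3 highest and 3 lowest levels in the MII oocyte, those past the threshold and the largest rise and fall. Those of the 1-cell embryo, those with the Type II motif, those at the first base of an exon, chr7:30584476 and chr7:30573962 were named after their values were seen. Alternatives were coverage of at least 50 or 100 reads, levels of at least 20%, thinning to 20 reads, reads divided by 5, pooled reads, log2 odds and other folding settings.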

Additional observations from a re-analysis of the deposited data

How the results depend on the processing

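With a level of at least 20%, the number of Kmt2b sites was 11 in the GV oocyte and 15 in the MII oocyte, and the median level in the MII oocyte was 42.1%. With every site thinned to 20 reads, 8 and 16 sites kept 5 unconverted reads. With at least 50 or at least 100 reads, 0 sites were left in the 1-cell embryo. With all reads divided by 5, as if each molecule had been read 5 times, 0 shared sites were called higher in the MII oocyte, and the adjusted p of the 3 called sites was 1, 1 and 0.888 (Fisher's exact test, background 0.672%). At least 50 or 100 reads, or a level of at least 20%, left 3 sites called. The median difference was 7.28, 4.42 and 8.996 points in that order, and 0.40 as a log2 odds ratio. In all, 44 of the values recomputed for the main results stayed within their limits of change and 8 did not. The median difference at the shared sites stayed positive with at least 50 or 100 reads, with a level of at least 20% and as a log2 odds ratio. It was not computed for thinned or divided reads. The order of the median levels per list did turn, from 22.3% in the GV oocyte and 21.4% in the MII oocyte to 22.3% and 22.7% with at least 50 reads and to 38.2% and 42.1% with a level of at least 20%, and these medians are taken over different sites. No paired analysis was possible because there was 1 library per stage and the stages share no replicate numbers beyond it.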

Other observations

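Coverage changed abruptly at 1 exon junction of Kmt2b. The site chr7:30573962, the third-last base of exon 30, had 339 reads in the GV oocyte and 298 in the MII oocyte, while chr7:30570841, the first base of exon 31, had 55 and 66 reads. The sites are 3 nt apart in the mRNA and 3121 nt apart in the genome, and the reads differed 6.16-fold and 4.52-fold. At the other junction with a close pair, between exons 19 and 20, chr7:30579517 and chr7:30578995 are 11 nt apart in the mRNA, and their 519 and 399 reads in the GV oocyte and 464 and 359 in the MII oocyte differed 1.30-fold and 1.29-fold. Close pairs within an exon differed 1.02-fold to 1.19-fold. The level at chr7:30573962 was 18.6% in the GV oocyte and 23.2% in the MII oocyte, and that at chr7:30570841 was 16.4% and 27.3%. The part of read alignment across junctions in these coverages was not tested.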
